A study of Mus musculus with 19 samples.

Results

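The transcripts of 54 genes for postsynaptic scaffolds and synaptic adhesion molecules were followed in mouse hippocampal neurons in which NMDA receptors were blocked for 6 h. The members were taken as a named list and not by a cut on their values. The list was chosen with earlier results of these data known. Of the 54, 47 had a probe under the listed gene name and 6 had one under an older name that was matched through the probe's accession (Dlg1, Dlg3, Dlg4, Cadm1, Cadm2 and Cadm3). Iqsec2 was matched by neither route and is not analysed here. All 53 others passed the filter on dim probes, out of 19354 genes on the arrays that did so.

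The cells were dissociated hippocampal neurons, 21 days in vitro, that received vehicle (5 arrays), AP5 at 100 µM (5 arrays), NVP-AAM077 at 100 nM (4 arrays, here NVP) or the compound labelled Ro25-4891 at 1 µM (5 arrays, here Ro25). The labels give no strain, sex or age of the animals, and they do not say whether replicates came from separate cultures, so every p-value reflects the spread among these arrays, which may be technical. AP5 competes with glutamate for NMDA receptors, and NVP-AAM077 also competes with it, somewhat better at receptors with the GluN2A subunit. The name of the Ro25 compound differs in its number from the common GluN2B antagonist of that prefix, and what it is was not settled here. Since each compound was given at a dose of its own, no comparison between compounds is dose-matched. The title of the series names basal NMDA receptor activity and its part in gene expression and survival, and the question here is which scaffold and adhesion transcripts differed when that activity was blocked.

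At an excitatory synapse, MAGUK proteins such as PSD-95 (Dlg4) hold NMDA receptors and other membrane proteins in the postsynaptic density. SAPAP proteins (Dlgap genes) tie them to Shank, and Shank to Homer, which binds metabotropic glutamate receptors. Adhesion molecules span the cleft: neuroligins and LRRTM proteins bind presynaptic neurexins, and Slitrk and related leucine-rich proteins bind receptor-type tyrosine phosphatases such as those encoded by Ptprd and Ptprs. Gephyrin (Gphn) is the main scaffold of inhibitory synapses.

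Each array held the neuron RNA in red (Cy5) and a universal mouse reference RNA in green (Cy3), and every value below is a log2 ratio of red over green unless it is said to be a difference between groups or 1 channel alone. The AP5 arrays lay on slides 1 and 2, NVP on 2 and 3, Ro25 on 3 and 4 and vehicle on 4 and 5. AP5 and vehicle thus never shared a slide, nor did NVP and vehicle or AP5 and Ro25. Neuron markers were well above the reference on all 19 arrays. Their mean ratio over 10 genes ran from 4.27 to 4.60 with vehicle and from 4.60 to 4.77 with AP5. Markers of astrocytes (11 genes) ran from 2.46 to 3.69 with vehicle and from 2.55 to 4.02 with AP5, and 1 array in each group was low in them (AP5 5, NVP 4, Ro25 3 and vehicle 3). Microglia markers lay at -1.88 to -1.69 with vehicle and at -2.03 to -1.81 with AP5 (8 of 10 measured; Itgam and P2ry12 did not pass the filter), and the 6 fibroblast markers at -4.88 to -4.50 and -4.91 to -4.59. With AP5, 3 of 10 neuron, 3 of 8 excitatory, 3 of 8 GABAergic and 2 of 8 oligodendrocyte markers were called higher in the ratio and 3 of 8 microglia markers lower (limma; over all genes 10.8% were called higher and 7.21% lower). None of 11 astrocyte, 4 endothelial or 6 fibroblast markers was called (limma; 1 of these, endothelial, at an unadjusted p under 0.05), and all 6 fibroblast differences were below 0. Of the 11 markers called higher, 6 were above 0 in the red channel alone, and 1 (Emx1) was still called once the trend with the ratio, described below, was removed. The 3 lower were the microglia genes Fcer1g (-0.53; -0.37 in the red channel alone), Tmem119 (-0.29; -0.010) and Trem2 (-0.26; 0.020), of which Fcer1g was still called with the trend removed. In such bulk RNA, fewer cells of a type and less RNA per cell cannot be told apart, and the part of cell makeup in the results was not tested.

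Promoter sequence is shown for 3 members, because they had the smallest adjusted p of the called members in the RefSeq promoter table, which held 40 of the 53 measured members and 9 of the 12 called ones (GRCm38.p6 build). Each line gives the 250 bases before the annotated start, 5′ to 3′ on the gene's strand. Lrrtm1 lies at chr6:77242227-77242476 on the plus strand, Cadm3 at chr1:173367696-173367945 on the minus strand, and the first of 2 Homer2 windows at chr7:81706926-81707175 on the minus strand. Capitals mark the motifs searched on both strands: the cAMP response element TGACGTCA, its half-site TGACG, the E-box CACGTG, the GC box GGGCGG and the MEF2 site.
Lrrtm1: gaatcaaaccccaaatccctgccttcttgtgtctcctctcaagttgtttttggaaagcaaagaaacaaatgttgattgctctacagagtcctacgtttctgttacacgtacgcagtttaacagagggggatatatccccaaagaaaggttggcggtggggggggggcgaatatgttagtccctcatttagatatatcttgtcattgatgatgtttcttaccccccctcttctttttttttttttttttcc
Cadm3: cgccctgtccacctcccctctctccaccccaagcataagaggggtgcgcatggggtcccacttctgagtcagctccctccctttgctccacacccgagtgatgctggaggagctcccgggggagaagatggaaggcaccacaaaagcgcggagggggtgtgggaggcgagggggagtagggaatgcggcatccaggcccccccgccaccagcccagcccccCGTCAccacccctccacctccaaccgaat
Homer2: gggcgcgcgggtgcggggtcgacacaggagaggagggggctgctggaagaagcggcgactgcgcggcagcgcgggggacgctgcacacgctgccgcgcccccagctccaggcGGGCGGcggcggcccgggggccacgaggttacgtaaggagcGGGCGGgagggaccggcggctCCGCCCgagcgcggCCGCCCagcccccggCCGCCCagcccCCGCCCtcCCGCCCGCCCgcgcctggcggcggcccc
The Lrrtm1 window held none of the 5 motifs, the Cadm3 window held 1 half-site on the opposite strand 29 to 25 bases before the start, and the Homer2 window held 8 GC boxes, some overlapping, between 138 and 19 bases before the start. Among all 32851 windows of this length in the table, 32.7% held a GC box, 17.8% the half-site (which the full element contains), 6.02% the E-box, 1.55% the full element and 0.508% the MEF2 site. Among the 64 windows of members these shares were 39.1%, 10.9%, 7.81%, 1.56% and 0%. The GC content of the 3 windows was 42%, 66.8% and 83.2%, against a median of 57.8% over member windows and 52.4% over all. A match is a description of letters in the window, and nothing here bears on binding.

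In vehicle neurons most members were more abundant than in the reference RNA. The mean log2 ratio of the 53 members ran from -0.33 (Dlg1) to 5.66 (Dlgap3), the median member lay at 2.94, and the median of all genes was 0.10. Of the members, 24 of 53 (45.3%) lay above a ratio of 3, against 5.23% of all genes. The highest were Dlgap3 at 5.66 ± 0.17 (SD, n = 5), the netrin-G ligands Lrrc4 at 5.59 ± 0.16 and Lrrc4c at 5.10 ± 0.20, and Nlgn1, the neuroligin of excitatory synapses, at 5.06 ± 0.28. Dlg1 was the only member below 0, at -0.33 ± 0.19. Lrfn1, Slitrk2, Grip2 and Shank2 lay between 0.18 and 0.28. Only Shank2 of these was well above background in both channels on all 19 arrays. For Lrfn1 and Slitrk2 the red was so on 6 arrays and the green on 0, and for Grip2 on 11 and 9. Ratios near 0 from such dim signals do not show a level like that of the reference. These ratios compare each gene with its own level in the reference, so they do not rank the genes by transcript number. The dyes were not swapped, so the ratios hold any dye effect. The green signal of Nlgn1, Slitrk1, Lrrtm2, Lrrtm3, Lrrtm4 and Cnksr2 was well above background on 0 arrays. It was so on 1 array for Cadm2, 5 for Slitrk5, 12 for Shank1 and 14 for Lrrtm1, among others. Where green is that dim, the size of a ratio depends on the background correction. Vehicle 1 had the lowest median member ratio of all 19 arrays, 2.73 against 2.88 to 3.23 on the others.

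With AP5, 12 of the 53 members rose against vehicle in the ratio (limma, adjusted p under 0.05), 0 fell and 41 did not pass. The 12 are 22.6% of the members, and 10.8% of all genes tested were called higher and 7.21% lower. At an unadjusted p under 0.05, 18 members were higher and 0 lower. The difference was above 0 for 45 members and below 0 for 8, and its median was 0.11 against 0.012 over all genes tested. Of the 12, 5 were among the 25 scaffold and signalling members and 7 among the 28 adhesion members. Leaving out each of the 19 arrays in turn, 7 of the 12 were called every time (Lrrtm1, Nrxn2, Dlgap3, Nrgn, Cadm3, Homer2 and Efnb3). Dlg2 was lost without AP5 3, AP5 4, vehicle 1 or vehicle 5, Homer3 without AP5 2, AP5 3 or vehicle 3, and Ptprs without AP5 1, AP5 3 or vehicle 1. Nlgn3 was lost without AP5 1, AP5 5, vehicle 1 or vehicle 5, and Lrrc4 without any of these 4 or vehicle 3. The count was lowest, at 8, without vehicle 1, and without the 4 arrays low in astrocyte markers it was 9, of which 8 were among the 12. The arrays of the groups did not overlap for 7 members, all higher with AP5 (Dlg2, Shank3, Homer2, Lrrtm1, Lrfn2, Cadm3 and Ptprs), where 7.4% of all genes were separate in that direction and 4.5% in the other.

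These calls depended on how the ratio was set against other genes. Genes with a high ratio to the reference shifted upward with AP5 as a class: the median difference of all genes rose from -0.17 for a mean ratio below -3 to 0.26 for one above 3, and 26 of the 53 members lay in that top class. With this trend removed, Lrrtm1 alone was called higher (of 53; 7.17% of all genes), Kalrn, Neto2 and Slitrk5 were called lower (6.69% of all genes), and the median member difference was -0.031. In the red channel alone, 0 members were called higher (6.02% of all genes) and 2 lower, Kalrn and Slitrk5 (4.87%). At an unadjusted p under 0.05 (limma), 1 was higher and 4 lower, against 2462 and 2231 of all 19352 genes tested. Of the 53 differences in red, 41 were below 0. The green channel alone holds the same reference RNA on every array. In it, 0 members were called higher (2.2% of all genes) and 4 lower, Kalrn, Nrxn2, Ptprs and Slitrk3 (3.08%). At an unadjusted p under 0.05 (limma), 2 were higher there and 20 lower, against 2432 and 2158 of all 19352 genes tested. As in the red channel, 41 of 53 differences were below 0. For this reason each member called with AP5 is given below with its difference in both channels. The forest plot shows every member beside the median of the 200 genes nearest to it in mean ratio.

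**Figure D1:**
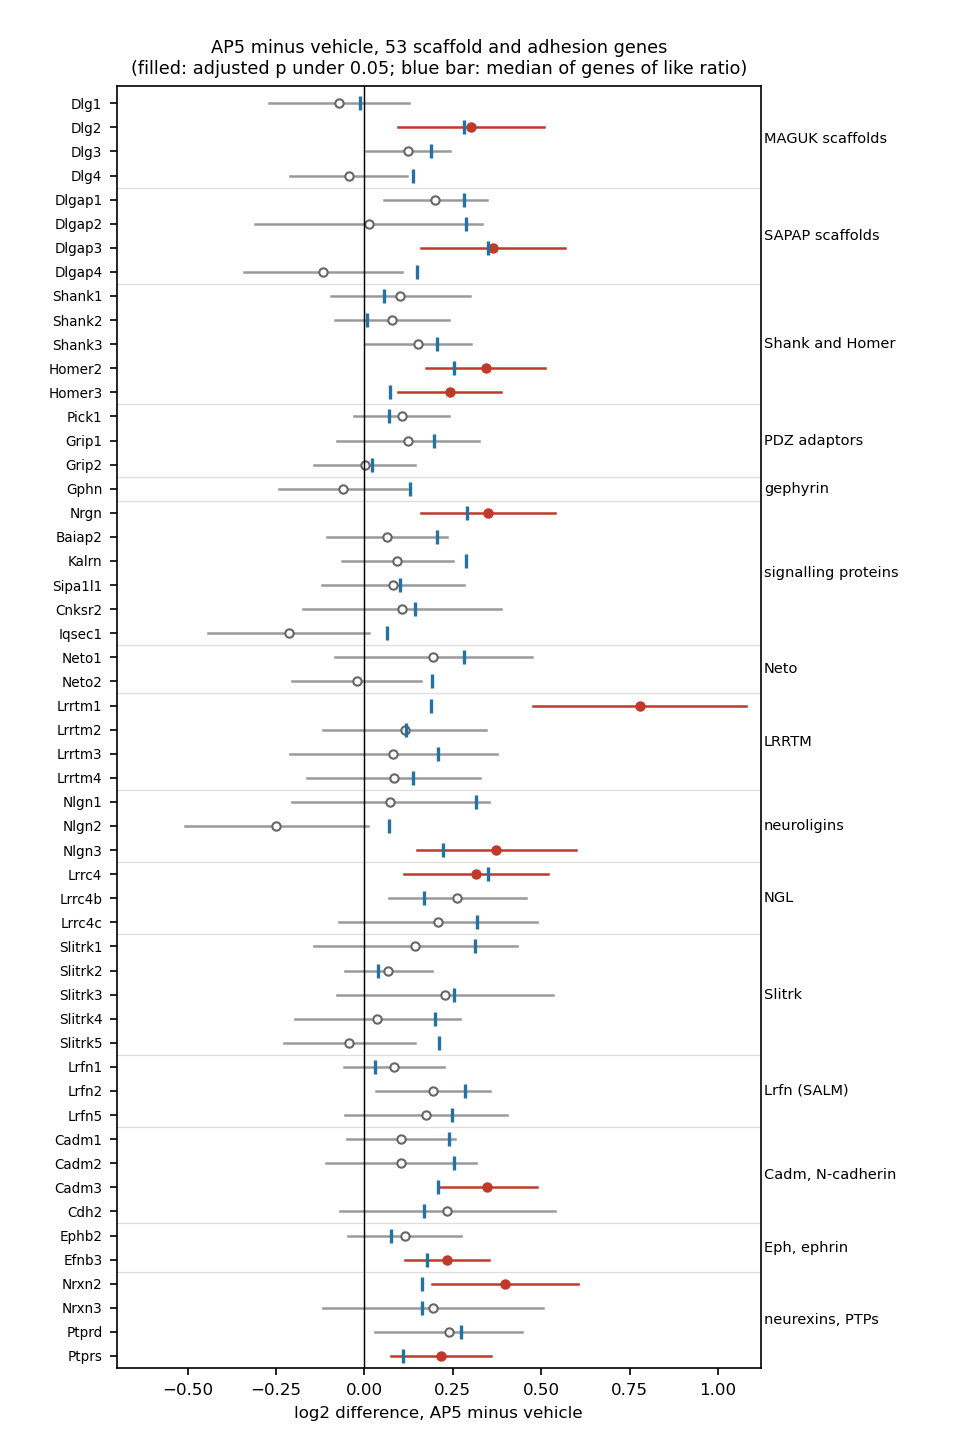
Log2 difference between AP5 and vehicle arrays (x axis) for the 53 measured members, grouped by role. Circles are limma estimates with 95% confidence intervals (filled red, adjusted p under 0.05), and the blue bar is the median of the 200 genes nearest in mean ratio. The 12 filled members lie at 0.22 to 0.78, and Lrrtm1 stands farthest from its blue bar. In the red channel alone none of the 12 was called and 8 of them lay below 0. All 12 lay below 0 in the green channel, which holds the reference RNA.

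Among the adhesion molecules that bind neurexins, Lrrtm1 changed most. Lrrtm1 encodes a leucine-rich transmembrane protein of excitatory postsynaptic sites. Its log2 ratio was 2.34, 2.70, 2.80, 2.93 and 2.31 on the 5 vehicle arrays and 3.61, 3.20, 3.46, 3.33 and 3.38 on the 5 AP5 arrays. All AP5 arrays lay above all vehicle arrays. The difference was 0.78 ± 0.14 (SE, 95% confidence interval 0.48 to 1.08; limma, adjusted p = 0.0011), a 1.71-fold higher ratio (1.39 to 2.11). Genes of like ratio had a median difference of 0.19, and with the trend removed Lrrtm1 kept 0.59 (adjusted p = 0.00093). The red channel alone gave 0.40 ± 0.13 (adjusted p = 0.058) and the green -0.13 ± 0.046 (adjusted p = 0.098). The ratio as deposited, which differs in its background correction and its dye normalization, gave 1.59 ± 0.28 (adjusted p = 0.0011), so the size of the change depended on the processing of the ratio. Lrrtm1 had 1 probe, at chr6:77187007-77187066 of the mm8 build given in the file headers, and no second probe checked it. Its green signal was well above background on 14 of the 19 arrays.

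The other LRRTM genes did not pass: Lrrtm2 differed by 0.11 ± 0.11 (adjusted p = 0.52), Lrrtm3 by 0.082 ± 0.14 (adjusted p = 0.74) and Lrrtm4, which binds heparan sulfate proteoglycans, by 0.083 ± 0.12 (adjusted p = 0.68). Whether Lrrtm1 differed from these 3 in its response was not tested. The neurexin partners on the presynaptic side were Nrxn2 and Nrxn3. Nrxn2 was at 2.60, 2.69, 2.80, 2.67 and 2.68 with vehicle and at 3.11, 3.19, 3.20, 3.28 and 2.66 with AP5. AP5 5, the only AP5 array on slide 2, lay within the vehicle range, and the other 4 lay above it. The difference was 0.40 ± 0.10 (limma, adjusted p = 0.0087), or -0.072 in the red channel alone and -0.40 in the green, and in the green channel, which holds the reference RNA, Nrxn2 was called lower (adjusted p = 0.0037). Without AP5 5 it was 0.50. Both kept Nrxn2 probes were called higher, at 0.40 and 0.29. They overlap (chr19:6532047-6532106 and chr19:6532012-6532071), so the second is not an independent check. Nrxn3 differed by 0.19 ± 0.15 and did not pass (adjusted p = 0.4).

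Of the neuroligins, Nlgn3, which is found at both excitatory and inhibitory synapses, rose in the ratio. It was at 2.94, 3.41, 3.11, 3.44 and 2.96 with vehicle and at 3.69, 3.51, 3.42, 3.33 and 3.77 with AP5. The groups overlapped, since vehicle 2 and vehicle 4 reached the level of the lower AP5 arrays. The difference was 0.37 ± 0.11 (limma, adjusted p = 0.021), or -0.019 in the red channel alone and -0.15 in the green. Without vehicle 1 it was 0.31 (adjusted p = 0.062). Nlgn1 differed by 0.073 ± 0.13 (adjusted p = 0.76). Nlgn2, the neuroligin of inhibitory synapses, had the most negative difference of all members, -0.25 ± 0.12, and did not pass (adjusted p = 0.18). Its AP5 arrays split, with 0.93 on AP5 1 and 1.04 on AP5 5 against 1.57 to 1.66 on the other 3, while 4 vehicle arrays lay between 1.55 and 1.69 and vehicle 5 had no usable spot. Gephyrin, the scaffold of the same inhibitory synapses, was at 1.62, 1.80, 2.03, 1.83 and 2.02 with vehicle and at 1.94, 1.67, 1.77, 1.81 and 1.82 with AP5. The groups overlapped, with a difference of -0.061 ± 0.086 (adjusted p = 0.68), and its 4 probes gave -0.21 to 0.12.

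The netrin-G ligands had 3 positive differences, of which 1 passed. Lrrc4, also known as NGL-2, was at 5.38, 5.83, 5.55, 5.62 and 5.56 with vehicle and at 6.12, 5.80, 5.83, 5.83 and 5.94 with AP5. Vehicle 2 overlapped the AP5 arrays, and the other 4 vehicle arrays lay below them. The difference was 0.32 ± 0.10 (limma, adjusted p = 0.03), or -0.11 in the red channel alone and -0.18 in the green. Genes of like ratio had a median difference of 0.35, above that of Lrrc4 itself, and without vehicle 1 the adjusted p was 0.085. Lrrc4b differed by 0.26 ± 0.092 and just missed the threshold (adjusted p = 0.055), and Lrrc4c differed by 0.21 ± 0.13 (adjusted p = 0.31).

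The Slitrk and Lrfn genes, which encode leucine-rich adhesion proteins of synapses, had 0 of 8 calls in the ratio with limma. Of all genes, 10.8% were called higher and 7.21% lower. Of the 8, 1 was at an unadjusted p under 0.05, Lrfn2. Slitrk3, which acts at inhibitory synapses, was at 3.20, 3.36, 3.68 and 3.65 on the 4 vehicle arrays with a usable spot and at 3.37, 3.87, 3.87, 4.10 and 3.29 with AP5. AP5 1 and AP5 5 lay within the vehicle range and the other 3 above it. The difference was 0.23 ± 0.14 (limma, adjusted p = 0.3), or -0.24 in the red channel alone and -0.22 in the green (adjusted p = 0.036 in the green). Slitrk5 was chosen for mention after its values were seen. It differed by -0.043 ± 0.088 in the ratio and was called lower in the red channel alone, -0.44 ± 0.089 (adjusted p = 0.0034), and with the trend removed, -0.25 ± 0.061 (adjusted p = 0.010), but it was higher by 1.15 ± 0.34 in the ratio as deposited (adjusted p = 0.031), so its direction was not settled. Slitrk1, Slitrk2 and Slitrk4 differed by 0.14, 0.067 and 0.036. Lrfn2, or SALM1, was at 3.77, 3.92, 3.96, 3.99 and 3.62 with vehicle and at 4.03, 4.04, 4.02, 4.04 and 4.11 with AP5. All 5 AP5 arrays lay above all vehicle arrays, with a difference of 0.19 ± 0.077 that did not pass (limma, adjusted p = 0.089; -0.13 in the red channel alone and -0.075 in the green). Lrfn5 differed by 0.17 and Lrfn1 by 0.084.

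Among the nectin-like molecules and cadherins, Cadm3 rose in the ratio. Cadm3 encodes a nectin-like adhesion molecule of axons and synapses. It was at 2.88, 3.20, 3.07, 3.06 and 2.96 with vehicle and at 3.48, 3.29, 3.45, 3.38 and 3.32 with AP5. The AP5 arrays all lay above the vehicle arrays. The difference was 0.35 ± 0.066 (limma, adjusted p = 0.0013), or -0.08 in the red channel alone and -0.20 in the green, and its other kept probe gave 0.19. Cadm1 and Cadm2 differed by 0.10 ± 0.073 and 0.10 ± 0.10 (adjusted p = 0.35 and 0.53). The 3 kept Cadm1 probes gave 0.079 to 0.21, and the highest was called higher in the fit to probes (limma, adjusted p = 0.028). N-cadherin (Cdh2) differed by 0.23 ± 0.14 (adjusted p = 0.29), with 3.47 on AP5 1 and 3.31 on AP5 5 above the 2.68 to 2.86 of the other AP5 arrays. AP5 1 and AP5 5 were thus the arrays that stood apart for Nlgn2, Slitrk3 and Cdh2, low for the first 2 and high for Cdh2.

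Of the Eph system, Efnb3, the ephrin-B3 ligand, rose in the ratio. It was at 2.73, 2.84, 2.94, 2.65 and 2.74 with vehicle and at 2.91, 3.08, 3.04, 3.07 and 2.96 with AP5. Vehicle 3 overlapped the lowest AP5 array. The difference was 0.23 ± 0.056 (limma, adjusted p = 0.0075), or -0.041 in the red channel alone and -0.19 in the green. Its receptor Ephb2 differed by 0.11 ± 0.076 (adjusted p = 0.33), and both its channels were above 0 (0.15 in the red and 0.05 in the green). The receptor-type phosphatase Ptprs was at 1.74, 2.08, 2.03, 2.00 and 2.03 with vehicle and at 2.32, 2.11, 2.23, 2.15 and 2.15 with AP5. The groups did not overlap, and vehicle 1 lay below the rest. The difference was 0.22 ± 0.068 (limma, adjusted p = 0.032), or 0.052 in the red channel alone and -0.16 in the green (adjusted p = 0.035 in the green). Without vehicle 1 it was 0.16 (adjusted p = 0.088), and the second probe gave 0.094. Ptprd differed by 0.24 ± 0.10 (adjusted p = 0.1).

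**Figure D2:**
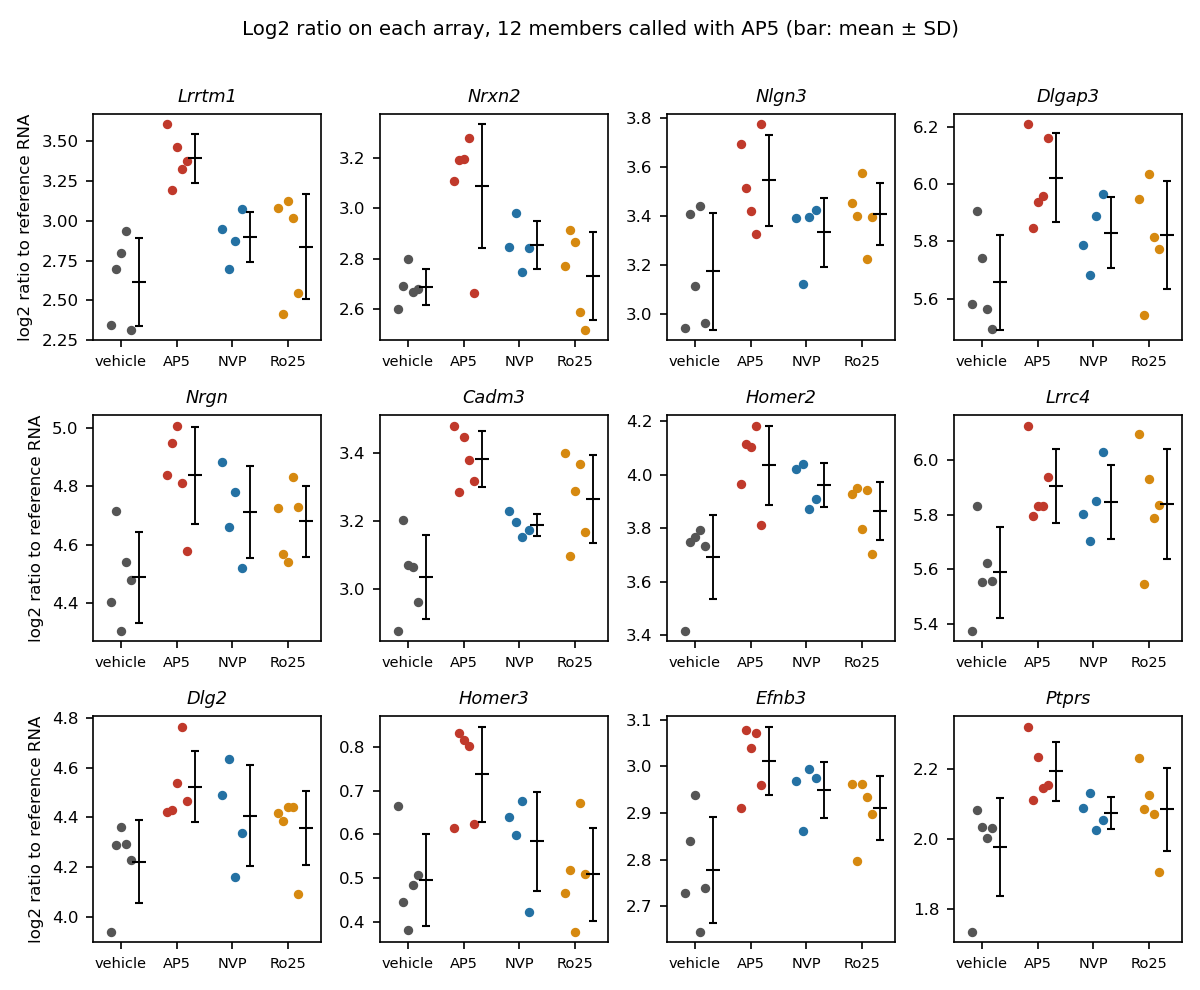
Log2 ratio to the reference RNA (y axis, a scale of its own in each panel) on each of the 19 arrays for the 12 members called with AP5. Points are arrays by group, and the bar beside each group is the mean ± SD. For Lrrtm1 the 5 AP5 arrays lie between 3.20 and 3.61, above every array of the other groups, while for Nrxn2 AP5 5 lies at 2.66 among the vehicle arrays. The AP5 differences from vehicle of 8 of these 12 members turned negative in the red channel alone, and those of all 12 in the green.

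Among the scaffolds of the NMDA receptor itself, Dlg2 (PSD-93) rose in the ratio and its relatives did not pass. Dlg2 was at 3.94, 4.29, 4.36, 4.29 and 4.23 with vehicle and at 4.42, 4.43, 4.54, 4.76 and 4.47 with AP5. The groups did not overlap, with vehicle 1 below the other vehicle arrays. The difference was 0.30 ± 0.10 (limma, adjusted p = 0.039), or -0.13 in the red channel alone and -0.14 in the green, and genes of like ratio had a median of 0.28. Without vehicle 1 the adjusted p was 0.11, and the second Dlg2 probe gave 0.075. PSD-95 (Dlg4) differed by -0.045 ± 0.08 (adjusted p = 0.75), with its second probe at 0.0024. SAP102 (Dlg3) differed by 0.12 ± 0.056 (adjusted p = 0.14) and SAP97 (Dlg1) by -0.073 ± 0.094 (adjusted p = 0.65).

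One SAPAP gene of 4 passed. Dlgap3, the SAPAP best known from striatal synapses, was at 5.58, 5.91, 5.74, 5.56 and 5.49 with vehicle and at 6.21, 5.85, 5.94, 5.96 and 6.16 with AP5. Vehicle 2 overlapped the lowest AP5 array. The difference was 0.36 ± 0.10 (limma, adjusted p = 0.013), or -0.084 in the red channel alone and -0.30 in the green, and genes of like ratio had a median of 0.35. Dlgap1 differed by 0.20 ± 0.069 (adjusted p = 0.052), but its 3 probes ran from -0.15 to 0.27. Dlgap2 differed by 0.012 ± 0.15 and Dlgap4 by -0.12 ± 0.11 (adjusted p = 0.97 and 0.49).

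Both Homer members rose in the ratio, and the 3 Shank genes did not pass. Homer2 was at 3.42, 3.75, 3.77, 3.79 and 3.73 with vehicle and at 3.96, 4.12, 4.11, 4.18 and 3.81 with AP5. The groups did not overlap, although AP5 5 lay just above the highest vehicle array. The difference was 0.34 ± 0.08 (limma, adjusted p = 0.006), or -0.093 in the red channel alone and -0.28 in the green, and both its probes were called, at 0.34 and 0.33. Homer3 was at 0.66, 0.45, 0.38, 0.48 and 0.51 with vehicle and at 0.61, 0.83, 0.81, 0.80 and 0.62 with AP5. Vehicle 1 overlapped the lower AP5 arrays. The difference was 0.24 ± 0.069 (limma, adjusted p = 0.02), or 0.18 in the red channel alone and -0.04 in the green, while genes of like ratio had a median of 0.071. Homer3 and Lrrtm1 had the highest red-channel differences of all 53 members. The Shank genes, whose proteins join SAPAP to Homer, differed by 0.10 ± 0.094 (Shank1), 0.078 ± 0.077 (Shank2) and 0.15 ± 0.071 (Shank3, adjusted p = 0.15), the last with no overlap between groups.

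Of the 6 signalling proteins measured, 1 passed. Neurogranin (Nrgn), which binds calmodulin in spines, was at 4.40, 4.72, 4.30, 4.54 and 4.48 with vehicle and at 4.84, 4.95, 5.01, 4.81 and 4.58 with AP5. Vehicle 2 overlapped the lowest AP5 array. The difference was 0.35 ± 0.091 (limma, adjusted p = 0.012), or 0.054 in the red channel alone and -0.23 in the green. Kalrn, a signalling protein of dendritic spines, was chosen for mention after its values were seen. Its ratio differed by 0.093 ± 0.075 (adjusted p = 0.43), while both channels were called lower, -0.65 ± 0.095 in the red (adjusted p = 0.00017) and -0.45 ± 0.076 in the green (adjusted p = 0.0028). The reference RNA received no treatment. Iqsec1, an exchange factor for Arf GTPases, differed by -0.21 ± 0.11 (adjusted p = 0.19), with 0.20 on AP5 1 and 0.20 on AP5 5 below the other AP5 arrays, and its second probe gave 0.15. Baiap2, Sipa1l1 and Cnksr2 differed by 0.063, 0.08 and 0.11, and Baiap2's second probe gave -0.39.

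The PDZ adaptors of AMPA receptors and the Neto proteins, which are auxiliary subunits of kainate receptors, had 0 of 5 calls with limma (against the same 10.8% and 7.21% of all genes; 0 at an unadjusted p under 0.05). Pick1 was at 0.37, 0.63, 0.73, 0.60 and 0.54 with vehicle and at 0.77, 0.55, 0.68, 0.61 and 0.79 with AP5. The groups overlapped, with a difference of 0.10 ± 0.064 (adjusted p = 0.28). The dimmer Pick1 probe gave 0.56 and was called higher, so the probes disagreed. Grip1 and Grip2 differed by 0.12 ± 0.10 and 0.00058 ± 0.068. Neto1 was at 4.10, 4.20, 4.28, 4.51 and 4.45 with vehicle and at 4.50, 4.55, 4.54, 4.89 and 4.05 with AP5. The groups overlapped through AP5 5, the lowest of all 10, and the difference was 0.20 ± 0.13 (adjusted p = 0.34). Neto2, chosen for mention after its values were seen, differed by -0.022 ± 0.087 and by -0.22 ± 0.059 with the trend removed (adjusted p = 0.017).

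**Figure D3:**
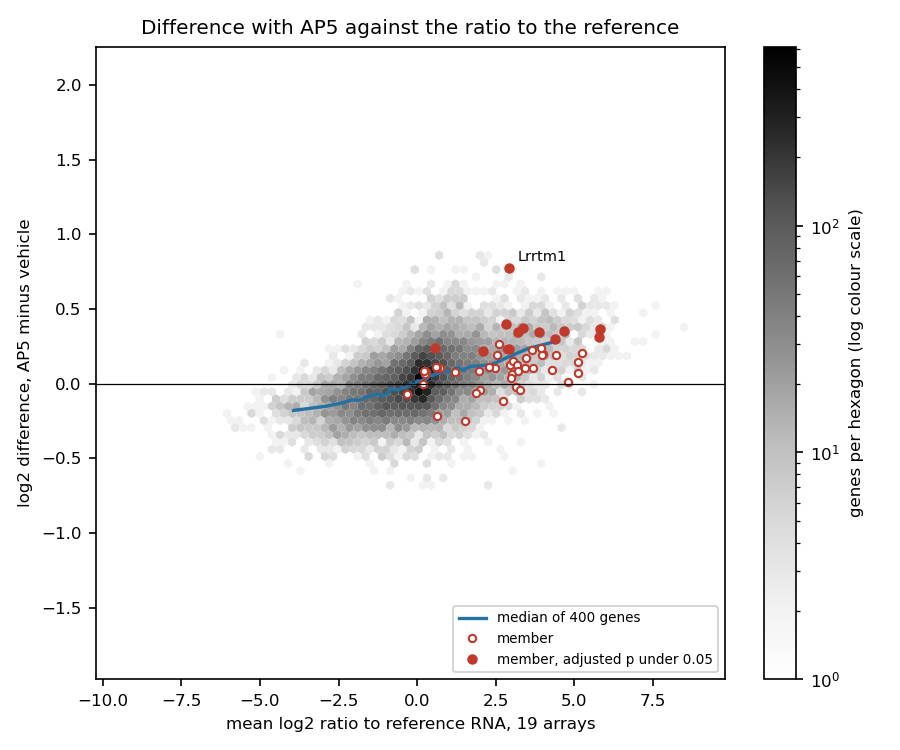
Log2 difference between AP5 and vehicle (y axis) against the mean log2 ratio to the reference over 19 arrays (x axis). Grey hexagons are all genes tested on a log colour scale, the blue line is a running median of all genes, and red circles are members (filled, adjusted p under 0.05). The line climbs from left to right, and most members lie on its upper part with only Lrrtm1 well above it.

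Against genes of like ratio, 20 members lay above the median of their 200 neighbours and 33 below, with member-minus-median differences from -0.32 (Nlgn2) to 0.59 (Lrrtm1) and a median of -0.037. Among those neighbours 9% to 51% were called either way, and for the median member the share was 29%. The next after Lrrtm1 were Nrxn2 (0.24), Homer3 (0.17), Nlgn3 (0.15) and Cadm3 (0.14). AP5 and vehicle shared no slide, and slides 1 and 5 held only AP5 and only vehicle arrays. When slide entered the fit as a fixed block, the difference therefore rested on AP5 5 and vehicle 2 alone, linked through NVP and Ro25 arrays. In that fit 0 members were called with limma (1 higher and 1 lower at an unadjusted p under 0.05), against 10 of all genes (0.0517%) called higher. Lrrtm1 was at 0.30 ± 0.46 and 7 of the 12 had a difference below 0. With 1 array on each side, these values cannot decide whether the calls hold. With slide as a random block, whose estimated correlation was below 0 (-0.078), 16 members were called higher, the 12 among them, and so were 14.3% of all genes (10.7% lower).

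**Figure D4:**
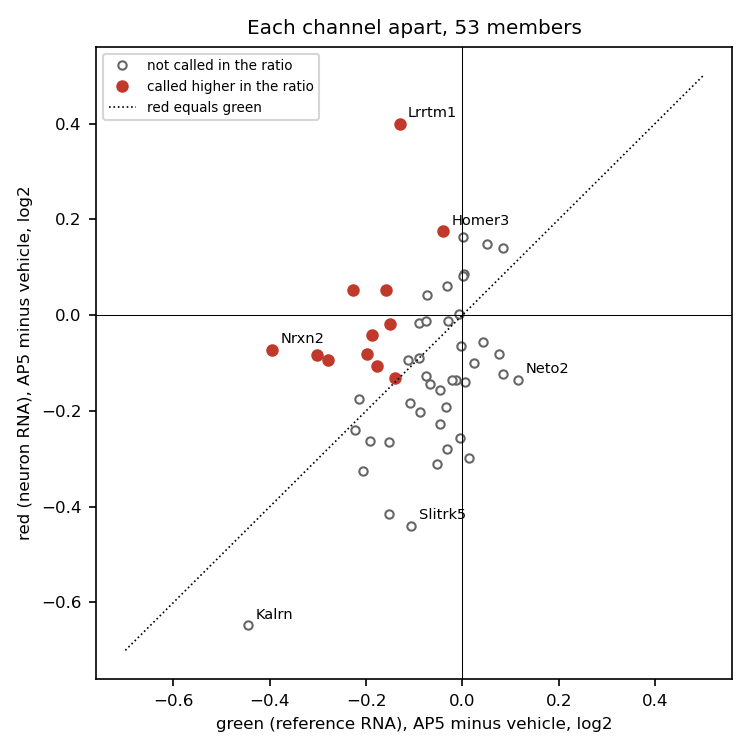
AP5-minus-vehicle difference of each of the 53 members in the green channel (reference RNA, x axis) and in the red channel (neuron RNA, y axis), in log2 units after quantile normalization between arrays. Filled points are the 12 members called in the ratio. They lie above the dotted line of equal change, but only Lrrtm1, Homer3, Nrgn and Ptprs lie above 0 in the red channel, and all 12 lie below 0 in the green.

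With NVP and with Ro25 no member passed. NVP minus vehicle gave 0 calls of 53 with limma (smallest adjusted p = 0.37; 0% of all genes called), with 11 members higher and 0 lower at an unadjusted p under 0.05, 48 differences above 0 and a median of 0.13 (0.013 over all genes). The arrays did not overlap for Homer2 and Slitrk3, both higher, where 1.66% of all genes were separate in that direction. Homer2 was at 4.02, 4.04, 3.87 and 3.91 with NVP, a difference of 0.27 ± 0.085. Slitrk3 was at 3.97, 3.80, 3.77 and 3.81, a difference of 0.36 ± 0.15, the highest of the members. Ro25 minus vehicle gave 0 calls of 53 with limma (smallest adjusted p = 0.53; 0% of all genes called), with 6 members higher and 0 lower at an unadjusted p under 0.05, 47 differences above 0 and a median of 0.090. For no member were the arrays separate (0.403% of all genes were so, higher). The highest Ro25 difference was that of Lrrc4, 0.25 ± 0.10, followed by Nlgn3 at 0.24 ± 0.11 and Cadm3 at 0.23 ± 0.066. On slide 4, which held 3 Ro25 arrays and vehicle 2, 29 of 53 members were above 0 with a median of 0.019. All 3 comparisons use the same 5 vehicle arrays, so their shared direction is not independent evidence. High-ratio genes shifted upward here too, by a median of 0.16 with NVP and 0.12 with Ro25 for a mean ratio above 3. With the trend removed the median member difference was 0.022 with NVP and -0.0046 with Ro25. In the red channel alone it was -0.013 and -0.022, and in the green, which holds the reference RNA, -0.034 and -0.046.

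**Figure D5:**
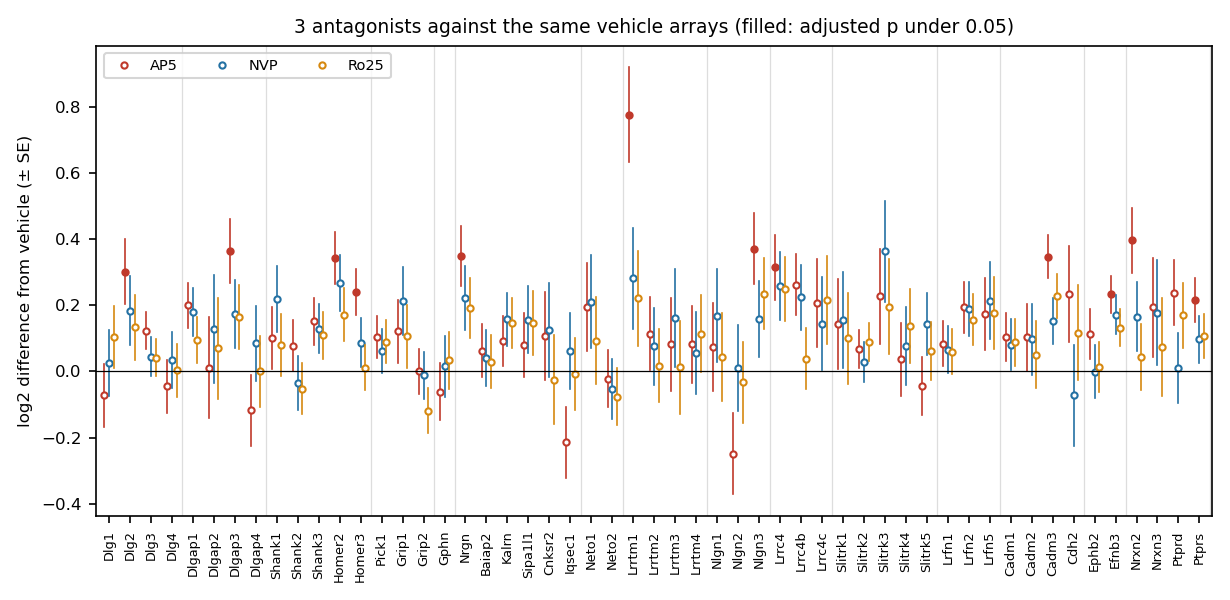
Log2 difference from vehicle ± SE (y axis) for each of the 53 members (x axis, by role) with AP5, NVP and Ro25, all against the same 5 vehicle arrays and at different doses. Filled points have an adjusted p under 0.05 and are all AP5. Most points of all 3 compounds lie above 0 in the ratio, and Lrrtm1 with AP5 lies at 0.78 against 0.28 with NVP and 0.22 with Ro25. In the red channel alone 41, 31 and 33 of 53 members lay below 0 with AP5, NVP and Ro25. In the green channel, which holds the reference RNA, 41, 37 and 45 lay below 0.

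The antagonists were also compared directly, in 3 pairs. AP5 minus Ro25 gave 2 calls of 53, both higher with AP5 (limma; 4.12% of all genes called higher, 1.94% lower). Lrrtm1 was at 3.08, 2.41, 3.12, 3.02 and 2.55 with Ro25, below all 5 AP5 arrays (4.39% of all genes were separate in that direction), a difference of 0.56 ± 0.14 (adjusted p = 0.025; 95% confidence interval 0.25 to 0.86). Nrxn2 was at 2.77, 2.91, 2.87, 2.59 and 2.52 with Ro25, overlapping AP5 5, a difference of 0.35 ± 0.098 (adjusted p = 0.038), or -0.079 in the red channel alone and -0.39 in the green. AP5 and Ro25 shared no slide, so a difference between slides cannot be told apart from one between these compounds. Both calls were lost in a fit to these 10 arrays alone, without AP5 1, without AP5 3 and without Ro25 5. Lrrtm1 alone was lost without Ro25 2, and Nrxn2 alone without AP5 2, AP5 4, Ro25 1 or Ro25 4. AP5 minus NVP gave 0 calls of 53 with limma (2.88% of all genes called higher, 1.35% lower), with 5 members higher and 2 lower at an unadjusted p under 0.05. Lrrtm1 was at 2.95, 2.69, 2.87 and 3.08 with NVP, again below all AP5 arrays (5.09% of all genes were so, as was Cadm3 among the members), a difference of 0.50 ± 0.15 (adjusted p = 0.080; interval 0.17 to 0.82). On slide 2, which held AP5 5 and 2 NVP arrays, 27 of 53 members were above 0 with a median of 0.0043. NVP minus Ro25 gave 0 calls of 53 with limma (0% of all genes called; 0 members at an unadjusted p under 0.05). Its differences ran from -0.19 (Cdh2) to 0.19 (Lrrc4b), and on slide 3, with 2 arrays of each, 31 of 53 were above 0. For Lrrtm1 the NVP minus Ro25 difference was 0.062, with an interval of -0.26 to 0.38, which holds differences of that size either way.

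Other genes of the synapse, from lists of related genes, give the setting. Of 36 other scaffold genes measured, 5 rose with AP5 and 1 fell (limma; 10.8% of all genes rose and 7.21% fell, and these shares apply to the next 2 lists as well). The sorting nexin Snx27 (0.39; 0.40 in the red channel alone), Ppp1r9a (0.39; 0.11), Lin7b (0.36; -0.054) and Mpp3 (0.35; 0.024) were the largest that rose, and Magi1, a MAGUK with inverted domain order, fell by 0.53 (adjusted p = 5.9e-05; -0.50 in the red channel alone). Of 57 other adhesion genes, 14 rose and 3 fell, led by Ctnna2 (0.60; 0.022), Cntn2 (0.59; 0.33), Flrt3 (0.54; 0.37) and Pcdh17 (0.51; 0.012), with Flrt2 (-0.49; -0.44), Lphn2 (-0.29; -0.24) and Gpc4 (-0.21; -0.23) lower. Of 20 genes for the glutamate receptors that these scaffolds hold, 10 rose and 0 fell, among them Gria1 (0.54; -0.059), Grik4 (0.51; 0.15) and Grm5 (0.49; 0.14). With the trend removed, the counts were 1 rose and 1 fell among the scaffolds, 3 and 6 among the adhesion genes, and 1 and 0 among the receptors, where 7.17% of all genes rose and 6.69% fell.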

How the data were processed

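The spot intensities of 19 two-colour Agilent arrays were used as deposited. Per the file headers they were extracted with Feature Extraction 9.5.3.1 (protocol GE2-v5_95_Feb07, probe positions on mm8), while the submitters' processing notes name version 11.0. The deposited log10 ratio and the authors' deposited log2 table served as alternatives. Spots that the software marked for uneven signal or as outliers were removed (1642 on vehicle 5, 117 to 266 elsewhere). Background was corrected with normexp (offset 50), and log2 ratios were normalized by loess within each array. A probe was kept if its red signal stood well above background on 4 arrays or more, and a gene was represented by its brightest kept probe. No filter was set on the green signal. Of the 53 members measured, 25 had more than 1 kept probe. The fit was made with limma (3.58.1, R 4.3.3), with a mean per group over 19 arrays. Tests were two-sided, with Benjamini-Hochberg adjustment over all genes and a threshold of 0.05. The fit of AP5 against vehicle, with and without removal of the trend, was tested on simulated data. With a trend added to the simulated ratios, the fit without removal called many unchanged genes, and the fit with removal called few. The added trend followed the mean ratio, by which it was then removed, so this outcome was set by the design. The simulated arrays were also drawn as independent. The simulation checks the working of the removal only and cannot show what made the trend on the real arrays. Precision is limited by the number of arrays: the median SE of a member's difference from vehicle was 0.0957 with AP5 and Ro25 and 0.102 with NVP.

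The members and lists were chosen with earlier results of these data known. Members called against vehicle are given with every vehicle and AP5 array, as is the member with the smallest p in each role group without a call. Of related lists, up to 4 called genes each way are named, except 1 that is not reported here. For 27 same-numbered pairs of arrays, the correlation of deviations had a median of -0.199, so the numbers did not pair the samples. The 108 other pairs across groups had a median of 0.0654. Pairs among the arrays low in astrocyte markers (AP5 5, NVP 4, Ro25 3 and vehicle 3) ran from 0.643 to 0.829. Whether arrays of different groups shared material was not tested, and the fit treated all arrays as independent. No 2 arrays shared more than 0.0161% of identical red signals.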

Additional observations from a re-analysis of the deposited data

Results flagged for a closer look

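In 16 of 212 sets of 4 or 5 arrays (53 members in 4 groups), 1 array stood apart from the rest of its group by Dixon's criterion, 7.55% where chance gives about 1 in 20. Values are log2 ratios on that array against the range of the others. Vehicle 1 was low for 3 members, of which Homer2 and Ptprs were called higher with AP5 in the ratio and Shank3 was not: Homer2 was 3.42 on vehicle 1 against 3.73 to 3.79, Ptprs 1.74 on vehicle 1 against 2.00 to 2.08 and Shank3 2.76 on vehicle 1 against 2.97 to 3.04. Ro25 5 was low for 3 scaffolds: Dlg2 was 4.09 on Ro25 5 against 4.39 to 4.44, Dlgap2 4.42 on Ro25 5 against 4.84 to 5.01 and Gphn 1.59 on Ro25 5 against 1.92 to 2.03. Among the other vehicle arrays, Dlg1 was -0.0051 on vehicle 2 against -0.46 to -0.35, and Ephb2 was 0.80 on vehicle 3 against 0.50 to 0.54. Among the AP5 arrays, Nrxn2 was 2.66 on AP5 5 against 3.11 to 3.28, Lrfn2 4.11 on AP5 5 against 4.02 to 4.04, Lrrtm3 3.57 on AP5 1 against 3.11 to 3.19 and Sipa1l1 0.98 on AP5 2 against 1.21 to 1.30. Among the NVP arrays, Neto2 was 3.31 on NVP 4 against 3.04 to 3.08, Nlgn3 3.12 on NVP 2 against 3.39 to 3.42 and Lrfn1 0.081 on NVP 3 against 0.30 to 0.31. Slitrk4 was 3.29 on Ro25 1 against 2.98 to 3.07. NVP 4 and vehicle 3 were also the arrays low in astrocyte markers in their groups, as was AP5 5, and the part of this in the values was not tested.

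The effects of AP5 and Ro25, each against vehicle, differed for 2 members by the direct test: by 0.56 for Lrrtm1 and by 0.35 for Nrxn2 (limma, adjusted p = 0.025 and 0.038), at doses that were not matched. The 2 groups also shared no slide.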

How the results depend on the processing

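Of 12 members called higher and 0 lower with AP5, the count higher became 0 with normexp fitted to all spots, 1 with ratios brought to 1 spread, 0 in the red channel alone, 0 in the green, 1 with the trend removed and 0 with the fixed slide block. The count lower became 2 in the red channel, 4 in the green and 3 with the trend removed. It ranged from 8 to 13 higher, and stayed at 0 lower, when single arrays were left out. The ratio as deposited gave 17 higher, normexp with an offset of 10 gave 16, and the other alternatives 9 to 16. No member was called with NVP or Ro25 against vehicle, or between these, under any alternative run. AP5 minus NVP (0 calls) gave 2 with the ratio as deposited, 1 in the red channel, 3 with the trend removed, 1 with the replicate block, 1 with only the arrays of the 2 groups and 1 without the 4 arrays low in astrocyte markers, an alternative chosen after seeing the data, and 0 to 1 when single arrays were left out. AP5 minus Ro25 (2 calls) gave 0 with normexp fitted to all spots, 0 with 1 spread, 4 in the red channel, 1 in the green, 1 with the mean of all probes, 0 with the fixed slide block, 1 with the authors' deposited table and 0 with only the arrays of the 2 groups, and 0 to 3 when single arrays were left out. The replicate number as a block left 9 members called higher with AP5 (1809 of 19352 genes tested were), 8 of them among the 12. The numbers did not pair the samples. Shares of all genes for AP5 minus vehicle in each channel, with the trend removed and with the slide blocks are given above. The other counts in this paragraph have no share over all genes beside them and are not read as results about the members. Those for AP5 minus NVP and AP5 minus Ro25 join both directions.

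Differences with AP5 that changed sign in the red channel were Nrxn2 (-0.072), Nlgn3 (-0.019), Dlgap3 (-0.084), Cadm3 (-0.080), Homer2 (-0.093), Lrrc4 (-0.11), Dlg2 (-0.13) and Efnb3 (-0.041). In the green channel they were Lrrtm1 (-0.13), Nrxn2 (-0.40), Nlgn3 (-0.15), Dlgap3 (-0.30), Nrgn (-0.23), Cadm3 (-0.20), Homer2 (-0.28), Lrrc4 (-0.18), Dlg2 (-0.14), Homer3 (-0.040), Efnb3 (-0.19) and Ptprs (-0.16). With the trend removed Lrrc4 was at -0.030. With slide as a fixed block the difference rested on AP5 5 and vehicle 2 alone. In that fit Nrgn was at -0.55, Cadm3 at -0.090, Homer2 at -0.030, Lrrc4 at -0.027, Homer3 at -0.072, Efnb3 at -0.0060 and Ptprs at -0.0071. For AP5 minus Ro25, Nrxn2 was at -0.079 in the red and -0.39 in the green channel, and Lrrtm1 at -0.068 in the green. The cause of these changes was not tested.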
